A study of Ogataea parapolymorpha with 8 samples.

Results

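Transcripts of a mutant of the yeast Ogataea parapolymorpha growing in aerobic batch culture were compared with those of the wild type in a chemostat labelled micro-aerobic. The members are the 4 libraries that the labels put in these 2 groups, of 8 libraries in the series, and all genes of the deposited table that passed a filter on low counts, 5265 of 5428. The mutant, strain IMX2167, is labelled gut2Δ ndi/ndeΔ. Its 2 libraries came from aerobic batch bioreactors at pH 6 in SM medium that held 7.5 g/L glucose, with no dilution rate and no supplement in the labels. The reference cultures were wild-type CBS11895 in chemostats at pH 6 and a dilution rate of 0.1 per h, fed SM urea medium of 20 g/L glucose that held ergosterol at 10 mg/L, Tween 80 at 420 mg/L and pluronic acid as antifoam, under the label micro-aerobic (2 libraries). The other groups of the series are given beside some genes as values only. The mutant chemostat was aerobic, at pH 5 and 0.1 per h in SM medium of 7.5 g/L glucose, with no supplement in the labels. The wild type labelled aerobic was a chemostat at pH 6 and 0.1 per h. Its SM urea medium held 7.5 g/L glucose, Tween 80 at 84 mg/L, ergosterol at 10 mg/L and pluronic acid. Each mutant culture is of 1 strain, and whether IMX2167 is a single clone is not stated in the labels.

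Genotype, culture mode, oxygen label, glucose, nitrogen source of the medium and the lipid supplements all differed between these groups. Their parts in any difference below cannot be told apart.

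O. parapolymorpha respires its sugar, can live on methanol in peroxisomes, and has a proton-pumping NADH dehydrogenase, complex I, which Saccharomyces cerevisiae lacks. NADH made in the cytosol by glycolysis cannot cross the inner mitochondrial membrane. Yeasts oxidise it with type II NADH dehydrogenases that face the cytosol (NDE), or through glycerol-3-phosphate, which the mitochondrial dehydrogenase Gut2 oxidises again, while NDI proteins are type II enzymes facing the matrix. The title of the series ties this re-oxidation of cytosolic NADH to the oxygen needs of the species. The label of the mutant names deletions of genes of these types, without saying which NDI and NDE loci.

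The 4 libraries held 8731655 and 11126081 counts in genes in the mutant batch, and 6190556 and 6319424 in the wild type labelled micro-aerobic. Levels are counts per 1000000 counts of the scaled library (CPM) and are given per library. Changes are log2 ratios of mutant batch over wild type labelled micro-aerobic, ± SE. A gene was called, and is said to have risen or fallen, when edgeR's quasi-likelihood test gave it an adjusted p, over all genes, under 0.05. CPM are not divided by gene length, so levels are compared between groups and not between genes. CPM say nothing of the amount of RNA per cell. The series text calls the 2 libraries of a group biological replicates and says no more, so a p-value here sets a difference against the spread between samples of a group. That spread was estimated over all 8 libraries, and it was smaller in the groups compared (biological coefficient of variation 0.0479 in the mutant batch and 0.078 in the wild type labelled micro-aerobic) than in the mutant chemostat (0.156) and the wild type labelled aerobic (0.153). Fitted alone, the 4 libraries gave 3229 calls. For every called gene given with values per library below, both batch libraries lay on the same side of both wild-type libraries. For genes named as the largest rises and falls this was a condition of the choice, so it describes the values and adds no support to the calls.

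The oxygen labels of the wild-type libraries were set against genes that respond to oxygen in S. cerevisiae, where HEM13 (coproporphyrinogen oxidase of heme synthesis) and the sterol genes ERG25 and ERG11 are more expressed when oxygen is short. ERG25 (C-4 sterol methyl oxidase, OPAR_004641) had 17.1 and 18.4 CPM in the mutant chemostat, 14.5 and 15.5 CPM in the wild type labelled micro-aerobic and 3677 and 3585 CPM in the wild type labelled aerobic. HEM13 had 88.6 and 84.5 CPM in the mutant chemostat, 61.3 and 56.4 CPM in the wild type labelled micro-aerobic and 1202 and 1095 CPM in the wild type labelled aerobic. ERG11 (lanosterol demethylase) had 239.9 and 253 CPM in the mutant chemostat, 293 and 291 CPM in the wild type labelled micro-aerobic and 11161 and 12406 CPM in the wild type labelled aerobic. The high values of these 3 genes lay in the libraries labelled aerobic, against the order known in S. cerevisiae, and those labelled micro-aerobic were low. In the mutant batch, labelled aerobic as well, the means of ERG25, HEM13 and ERG11 were 43.9, 133 and 410 CPM. The 3 were picked with earlier results of these data known and do not stand for all oxygen-related genes. OLE1, another of these, had a mean of 3582 CPM in the wild type labelled micro-aerobic and 1209 CPM in the mutant batch. Across the genes tested, the root-mean-square log2 distance from the libraries labelled micro-aerobic was 0.498 to 0.712 to the mutant aerobic chemostat, 0.927 to 0.946 to the mutant batch and 1.08 to 1.14 to the wild type labelled aerobic. These distances are not specific to oxygen. The wild-type groups also differed in the glucose and the Tween of their media, so whether the oxygen labels hold was not tested. The oxygen label is used below as a name of the libraries only.

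GUT2 (OPAR_001648, chromosome 3, 740390 to 742327 in the deposited annotation of strain DL-1, 1 exon) had 111 and 94.8 CPM in the mutant batch, against 357 and 339.5 CPM in the wild type labelled micro-aerobic (log2 change -1.76 ± 0.13, adjusted p = 1.7e-07). Both mutant libraries lay below both wild-type libraries, and neither was near 0. The mutant chemostat, of the same strain, had 29.8 and 27.3 CPM. NDE1 (OPAR_004935, chromosome 7, 732835 to 734477), the only gene whose homolog in the annotation is an NDE or NDI gene of S. cerevisiae, had 5.34 and 4.55 CPM in the mutant batch, against 57.7 and 49.7 CPM in the wild type labelled micro-aerobic (log2 change -3.45 ± 0.21, adjusted p = 1.4e-08), and 0.492 and 0.531 CPM in the mutant chemostat. Which bases the deletions removed is not in the labels, so counts left at a locus do not tell whether the gene is whole.

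The other 3 genes that carry the same protein domains as NDE1 and have no homolog in the annotation were described after their values were seen. OPAR_001303 fell, with 31.7 and 31.1 CPM in the mutant batch, against 624 and 630.0 CPM in the wild type labelled micro-aerobic (log2 change -4.32 ± 0.17, adjusted p = 1.7e-10), and in the mutant chemostat it had 24.9 and 18.0 CPM. OPAR_001939 fell as well, with 5.80 and 4.90 CPM in the mutant batch, against 36.7 and 35.8 CPM in the wild type labelled micro-aerobic (log2 change -2.76 ± 0.21, adjusted p = 2.1e-07). OPAR_000205 rose, with 381 and 345 CPM in the mutant batch, against 84.2 and 89.3 CPM in the wild type labelled micro-aerobic (log2 change 2.07 ± 0.16, adjusted p = 1.6e-07). Both genes that fell kept counts in the batch, and the groups overlapped for none of the 3. The labels do not say which of these genes are the deleted NDI and NDE loci.

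Over all genes, 2308 of 5265 (43.8%) were called. Of these, 1169 were higher in the mutant batch (22.2% of genes tested) and 1139 lower (21.6%). By at least 2-fold, 308 were higher (5.85%) and 411 lower (7.81%). With each of the 4 libraries left out in turn 1462 to 1585 genes were called, while the calls of at least 2-fold numbered 297 to 339 higher and 376 to 418 lower. The falls reached further: 44 genes were called and at least 16-fold lower, and 7 at least 16-fold higher. The median log2 change over all genes was -0.02, with 5% of genes below -1.34 and 5% above 1.08. The scatter of levels shows this long lower tail beside a body of genes near the diagonal.

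**Figure D1:**
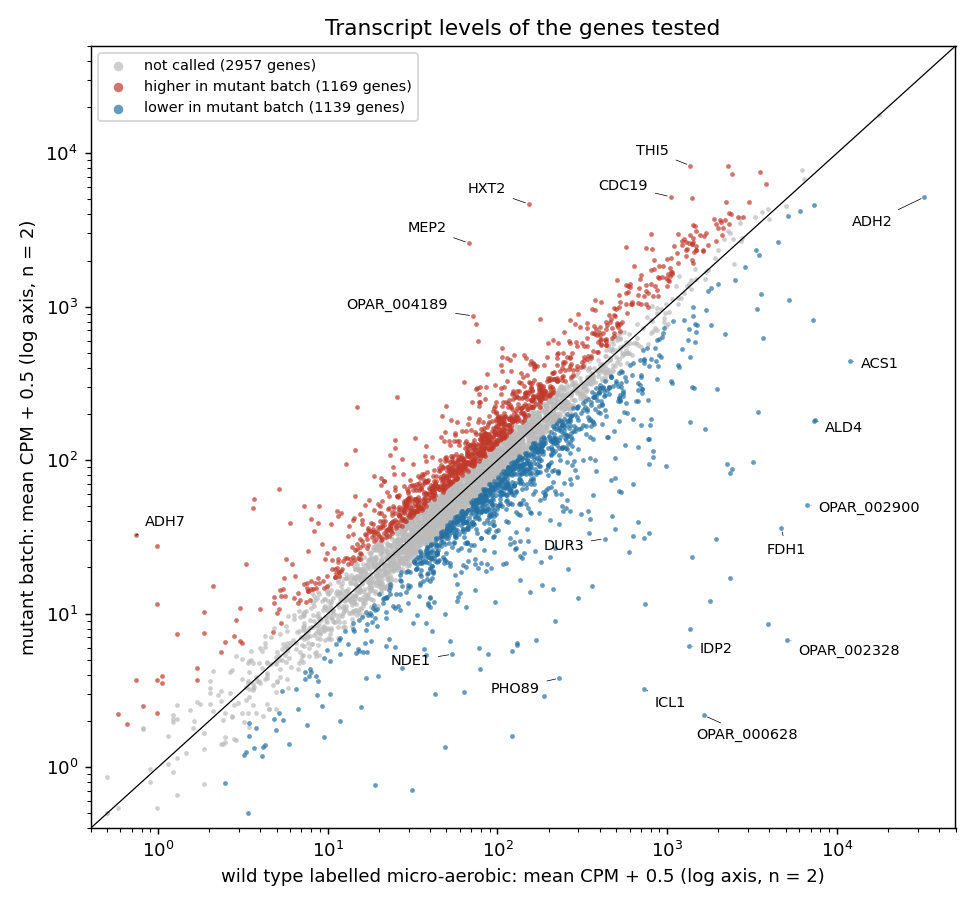
Mean CPM (plus 0.5, log axes) of the 5265 genes tested, with the mutant batch on the vertical axis and the wild type labelled micro-aerobic on the horizontal axis (n = 2 libraries each; the line marks equal levels). Red points are the 1169 genes called higher in the mutant batch, blue points the 1139 called lower, and grey points the rest; the blue points reach further from the line than the red ones.

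Genes of glycolysis and a hexose transporter were higher in the batch. Of 12 genes of glycolysis tested, 11 rose and none fell, all 11 by at least 2-fold, with a median log2 change of 1.77 against -0.02 over all genes. The 12 together took 5.50% and 5.70% of the CPM in the mutant batch, against 2.90% and 2.90% in the wild type labelled micro-aerobic. HXT2 (closest to a hexose transporter of S. cerevisiae, OPAR_001509) had 4651 and 4672 CPM in the mutant batch, against 157 and 148 CPM in the wild type labelled micro-aerobic (log2 change 4.93 ± 0.17, adjusted p = 6.4e-11), 30.5-fold apart. HXK2, a hexokinase that starts glycolysis, had 816 and 855 CPM in the mutant batch, against 166 and 191 CPM in the wild type labelled micro-aerobic (log2 change 2.23 ± 0.16, adjusted p = 8.7e-08). CDC19, the pyruvate kinase that ends it, had 5116 and 5281 CPM in the mutant batch, against 1047 and 1053 CPM in the wild type labelled micro-aerobic (log2 change 2.31 ± 0.16, adjusted p = 5e-08). For these genes every batch library lay above every wild-type library.

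The changes of the 11 that rose ran from 1.13 for PGK1 (phosphoglycerate kinase) to 2.31 for CDC19 on the log2 scale. GLK1/EMI2 (glucokinase) rose by 2.11 ± 0.14 on the log2 scale and PFK2, a subunit of phosphofructokinase, rose by 1.92 ± 0.20 on the log2 scale. ENO2 (enolase, log2 change 1.85 ± 0.15), GPM1 (phosphoglycerate mutase, 1.89 ± 0.17) and FBA1 (aldolase, 1.6 ± 0.15) rose too. TDH2, the glyceraldehyde-3-phosphate dehydrogenase and the only member not called, had 17324 and 18252 CPM in the mutant batch, against 17697 and 17668 CPM in the wild type labelled micro-aerobic (log2 change 0.01 ± 0.15, adjusted p = 0.971), and its libraries overlapped. All 11 calls held in each fit that left out 1 library.

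Genes that build sugar from acetate and other small compounds were much lower in the batch. All 4 genes tested of the glyoxylate cycle and gluconeogenesis fell, with a median log2 change of -4.0. ICL1 (isocitrate lyase, which splits isocitrate so that acetate can build sugar, OPAR_000168) had 2.50 and 2.97 CPM in the mutant batch, against 673 and 783 CPM in the wild type labelled micro-aerobic (log2 change -8.03 ± 0.27, adjusted p = 4.3e-11). MLS1, the malate synthase of the same cycle, had 33.0 and 33.5 CPM in the mutant batch, against 737 and 816 CPM in the wild type labelled micro-aerobic (log2 change -4.55 ± 0.15, adjusted p = 3.3e-11). PCK1, the phosphoenolpyruvate carboxykinase of gluconeogenesis, had 40.0 and 45.7 CPM in the mutant batch, against 516 and 428 CPM in the wild type labelled micro-aerobic (log2 change -3.46 ± 0.19, adjusted p = 4.5e-09). The batch libraries agreed closely with each other and lay 266-fold, 23.4-fold and 11-fold below the wild-type mean for ICL1, MLS1 and PCK1. FBP1 (fructose-1,6-bisphosphatase) changed least of the 4, with a log2 change of -1.39 ± 0.14.

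Ethanol and acetate genes split. ADH2 (alcohol dehydrogenase, OPAR_002658) fell, with 5043 and 5321 CPM in the mutant batch, against 30894 and 34739 CPM in the wild type labelled micro-aerobic (log2 change -2.66 ± 0.18, adjusted p = 5.5e-08). ALD4, a mitochondrial aldehyde dehydrogenase, had 183 and 177 CPM in the mutant batch, against 7472 and 7254 CPM in the wild type labelled micro-aerobic (log2 change -5.35 ± 0.19, adjusted p = 6.6e-11). ACS1, which makes acetyl-CoA from acetate, had 458 and 425 CPM in the mutant batch, against 11387 and 12509.6 CPM in the wild type labelled micro-aerobic (log2 change -4.76 ± 0.17, adjusted p = 7.8e-11). For each of the 3 both batch libraries were far below both wild-type libraries. ADY2 (acetate transport, log2 change -5.35 ± 0.17) and BDH1 (butanediol dehydrogenase, -4.06 ± 0.15) fell also.

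In the other direction, PDC5 (pyruvate decarboxylase, which starts ethanol formation) rose, with 2822 and 3171 CPM in the mutant batch, against 783 and 825 CPM in the wild type labelled micro-aerobic (log2 change 1.90 ± 0.19, adjusted p = 2.3e-06). ADH7 (an NADPH-dependent alcohol dehydrogenase in S. cerevisiae, OPAR_001725) had 650 counts over the mutant batch and 3 over the wild type labelled micro-aerobic, a ratio of 136 per count with an interval of 46.5 to 664 (95%, exact, counting error only). Of 10 genes in the list of fermentation and the pyruvate bypass, 3 rose (30% against 22.2% over all genes) and 4 fell (40% against 21.6%). The median log2 change was -0.12. Their summed CPM followed ADH2, ALD4 and ACS1, at 0.964% and 1.03% of the CPM in the mutant batch, against 5.18% and 5.65% in the wild type labelled micro-aerobic.

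**Figure D2:**
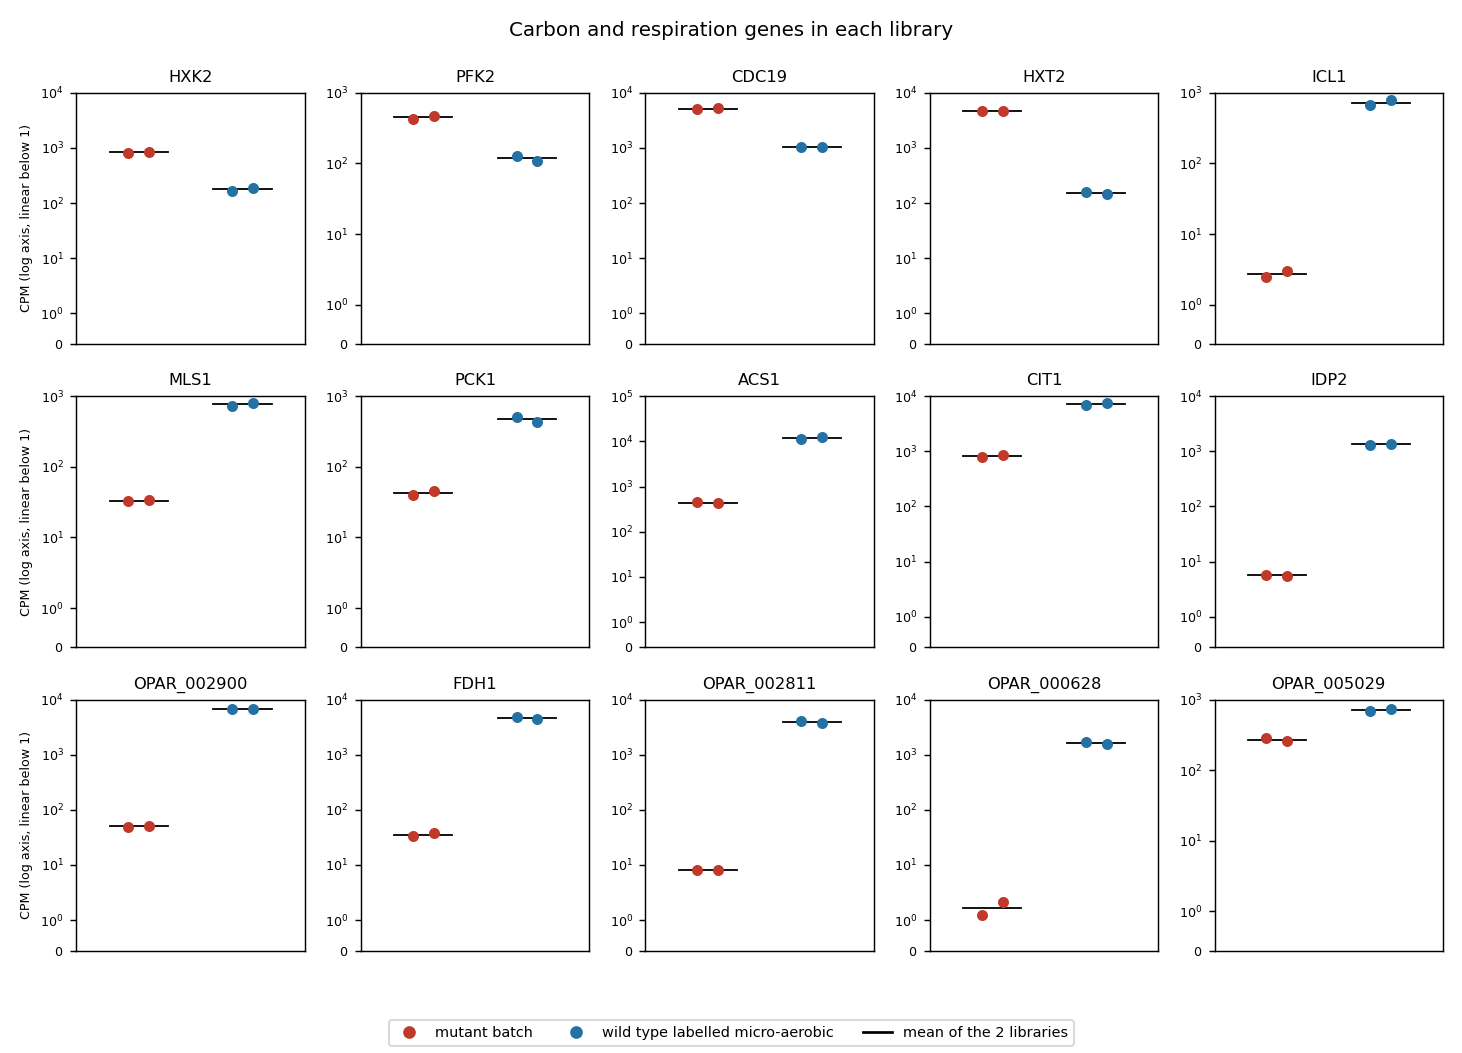
CPM in each library (points; log axis, linear below 1) of 15 genes of sugar uptake, glycolysis, the glyoxylate cycle, acetate and methanol use, sugar transport, a glycosidase and complex I (OPAR_005029), with the mutant batch on the left and the wild type labelled micro-aerobic on the right of each panel and lines at the mean of 2 libraries. HXK2, PFK2, CDC19 and HXT2 are higher in the batch and the other 11 lower, with no overlap between the groups.

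Peroxisomal genes fell widely. Of 15 genes of beta-oxidation and the carnitine shuttle 13 fell and 1 rose (median log2 change -1.80), and of 16 peroxins tested, of 17 members, 11 fell and none rose (median -0.81). POX1, the acyl-CoA oxidase that opens beta-oxidation, had 102 and 96.6 CPM in the mutant batch, against 403 and 347 CPM in the wild type labelled micro-aerobic (log2 change -1.92 ± 0.15, adjusted p = 2.4e-07). FOX2, the multifunctional enzyme of the next steps, fell, with a log2 change of -1.95 ± 0.15. The carnitine shuttle carries acetyl groups from peroxisome and cytosol into mitochondria, and its acetyltransferases YAT1, YAT2 and CAT2 fell, with log2 changes of -4.79 ± 0.23, -3.07 ± 0.20 and -2.95 ± 0.17. CRC1, the mitochondrial carnitine carrier, had 32.2 and 28.4 CPM in the mutant batch, against 1812 and 2075 CPM in the wild type labelled micro-aerobic (log2 change -6.01 ± 0.20, adjusted p = 4.3e-11). It stood 64.2-fold lower in the batch, the largest fall among the 17 mitochondrial carriers tested.

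IDP2 (cytosolic NADP-dependent isocitrate dehydrogenase), listed with beta-oxidation, had 5.80 and 5.51 CPM in the mutant batch, against 1320.2 and 1378 CPM in the wild type labelled micro-aerobic (log2 change -7.90 ± 0.21, adjusted p = 8.6e-12). PEX11, which acts in peroxisome division, had 94.1 and 89.2 CPM in the mutant batch, against 964 and 1004 CPM in the wild type labelled micro-aerobic (log2 change -3.42 ± 0.15, adjusted p = 4.2e-10). PEX13, PEX3 and PEX28 fell, with log2 changes of -1.55 ± 0.14, -1.17 ± 0.13 and -1.09 ± 0.17. The 1 gene of these lists that rose, FAT1 (a fatty acid transporter and acyl-CoA synthetase), had 188 and 198 CPM in the mutant batch, against 92.7 and 85.6 CPM in the wild type labelled micro-aerobic (log2 change 1.12 ± 0.13, adjusted p = 1.2e-05). All 13 falls of the beta-oxidation list held in each fit without 1 library. Tween 80, which carries oleic acid, is named for the wild-type medium only, and its part in these values cannot be told apart.

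Methanol genes were high in the wild type labelled micro-aerobic although no label names methanol. Of 8 genes of methanol and formaldehyde metabolism 7 fell and 1 rose (median -1.91), taking 0.228% and 0.230% of the CPM in the mutant batch, against 2.04% and 2.01% in the wild type labelled micro-aerobic. In the mutant chemostat the 8 took 1.85% and 1.53%, and in the wild type labelled aerobic 0.174% and 0.166%. OPAR_002900, which carries the domains of methanol (alcohol) oxidase, the first enzyme of methanol use, had 49.4 and 51.7 CPM in the mutant batch, against 6719 and 6698 CPM in the wild type labelled micro-aerobic (log2 change -7.05 ± 0.20, adjusted p = 8.6e-12). FDH1 (formate dehydrogenase, the last oxidation step) had 33.3 and 37.5 CPM in the mutant batch, against 4879 and 4533 CPM in the wild type labelled micro-aerobic (log2 change -7.05 ± 0.22, adjusted p = 2.6e-11). The means were 133-fold and 133-fold apart for these 2 genes. CTA1 (catalase) fell, with a log2 change of -2.23 ± 0.14. CTA1 is counted in the beta-oxidation list as well, and another member, DAK1, in the glycerol list. OPAR_000696, 1 of 2 listed genes with transketolase domains, fell, with a log2 change of -5.94 ± 0.24. The other of these, OPAR_000368, was the member that rose, with a log2 change of 1.69. All 7 falls held without any 1 library, and the rise was lost in some of these fits.

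The TCA cycle did not move as 1 block. Of 20 genes, 9 rose (45% against 22.2% over all genes) and 4 fell (20% against 21.6%), with a median of 0.04. The share that fell was thus near that over all genes. CIT1, the citrate synthase that brings acetyl-CoA into the cycle, had 793 and 842 CPM in the mutant batch, against 7021 and 7476 CPM in the wild type labelled micro-aerobic (log2 change -3.15 ± 0.15, adjusted p = 1.6e-09). ACO1 (aconitase, log2 change -0.77 ± 0.14) and the succinate dehydrogenase subunits SDH2 (-0.76 ± 0.16) and SDH4 (-0.66 ± 0.15) fell as well. Of the pyruvate dehydrogenase genes PDA1, PDB1, LAT1 and PDX1 rose, PDA1 with 1254 and 1290.0 CPM in the mutant batch, against 748 and 746 CPM in the wild type labelled micro-aerobic (log2 change 0.77 ± 0.14, adjusted p = 0.0006). IDH2, a subunit of the mitochondrial isocitrate dehydrogenase, rose by 0.79 ± 0.13 on the log2 scale. MDH1 (malate dehydrogenase, log2 change -0.24 ± 0.13, adjusted p = 0.144) and IDH1 (0.07 ± 0.16, adjusted p = 0.748) were not called.

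The respiratory chain split by complex. Of 17 genes of complex I, 13 fell and none rose, with a median log2 change of -1.04 and sums of 0.372% and 0.338% of the CPM in the mutant batch, against 0.698% and 0.713% in the wild type labelled micro-aerobic. OPAR_005029, a complex I gene by its domains, had 286 and 259.8 CPM in the mutant batch, against 687 and 742 CPM in the wild type labelled micro-aerobic (log2 change -1.39 ± 0.16, adjusted p = 9.7e-06). OPAR_005062, another, had 151 and 132 CPM in the mutant batch, against 391 and 494 CPM in the wild type labelled micro-aerobic (log2 change -1.65 ± 0.19, adjusted p = 1.2e-05). NUO51, the flavin-binding subunit that takes electrons from NADH, had 252 and 255 CPM in the mutant batch, against 544 and 497 CPM in the wild type labelled micro-aerobic (log2 change -1.04 ± 0.13, adjusted p = 2.6e-05). In each of these the higher batch library stayed below the lower wild-type library. Without any 1 library 12 or 13 complex I genes fell.

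Complex III with cytochrome c went the other way, with 9 of 12 genes up and 1 down (median 0.50). CYC1 (cytochrome c, which hands electrons to complex IV) had 2499 and 2246 CPM in the mutant batch, against 817 and 812 CPM in the wild type labelled micro-aerobic (log2 change 1.54 ± 0.20, adjusted p = 3e-05). QCR10, a subunit of complex III, had 382 and 358 CPM in the mutant batch, against 212 and 214 CPM in the wild type labelled micro-aerobic (log2 change 0.80 ± 0.15, adjusted p = 0.00069). The member that fell, CYB2, is not a subunit but a lactate dehydrogenase that feeds cytochrome c (log2 change -1.3 ± 0.21, adjusted p = 0.00025). For complex IV and its assembly 8 of 14 rose and none fell (median 0.41), led by the assembly factors COX11 (log2 change 0.99 ± 0.16) and COX15 (0.85 ± 0.13). These counts rest on small changes: with each library left out in turn, 4 to 5 genes of complex III and 2 to 4 of complex IV rose. Of 13 ATP synthase genes, 2 rose and 1 fell (median 0.03), and the fall, of ATP7, was lost under RLE and upper quartile scaling and without any 1 library.

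Mitochondrial carriers divided evenly, with 6 of 17 up (35.3% against 22.2% over all genes) and 6 down (35.3% against 21.6%). OAC1 (oxaloacetate carrier) rose, with 196 and 189 CPM in the mutant batch, against 49.6 and 43.8 CPM in the wild type labelled micro-aerobic (log2 change 2.04 ± 0.14, adjusted p = 8e-08). SFC1, which exchanges succinate for fumarate and links the glyoxylate cycle to mitochondria, fell, with 63.9 and 74.3 CPM in the mutant batch, against 609 and 639 CPM in the wild type labelled micro-aerobic (log2 change -3.17 ± 0.14, adjusted p = 6.6e-10). MAE1 (malic enzyme, which turns malate into pyruvate and NADPH or NADH) was among the largest rises, with 788 and 745 CPM in the mutant batch, against 78.3 and 69.2 CPM in the wild type labelled micro-aerobic (log2 change 3.38 ± 0.14, adjusted p = 2.8e-10).

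Of 6 glycerol genes tested 5 fell and 1 rose (median -1.03), and these falls and the median include GUT2, deleted by the label of the strain. STL1 (glycerol uptake with protons) had 63.3 and 60.2 CPM in the mutant batch, against 517 and 555 CPM in the wild type labelled micro-aerobic (log2 change -3.12 ± 0.19, adjusted p = 1.6e-08), and DAK1 (dihydroxyacetone kinase) fell, with a log2 change of -1.59 ± 0.24. GPD1/GPD2, the cytosolic glycerol-3-phosphate dehydrogenase that makes the substrate of Gut2, had 189 and 196 CPM in the mutant batch, against 258 and 279 CPM in the wild type labelled micro-aerobic (log2 change -0.48 ± 0.14, adjusted p = 0.0115). This fall was small and was lost without 3 of the 4 libraries in turn, and with each left out in turn 3 to 4 of the list fell and none rose.

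In the pentose phosphate pathway, which makes NADPH and ribose, 6 of 8 genes rose and 2 fell (median 0.79). The neighbouring transaldolase genes TAL1_1 (OPAR_000194) and TAL1_2 (OPAR_000195) moved in opposite directions, and whether these copies share reads is not known from the files. TAL1_1 had 2052 and 1957 CPM in the mutant batch, against 789.9 and 876 CPM in the wild type labelled micro-aerobic (log2 change 1.27 ± 0.16, adjusted p = 2e-05). TAL1_2 had 117 and 111 CPM in the mutant batch, against 795 and 854 CPM in the wild type labelled micro-aerobic (log2 change -2.86 ± 0.16, adjusted p = 9.1e-09). The rises included GND1 (6-phosphogluconate dehydrogenase, log2 change 1.2 ± 0.14) and TKL1 (transketolase, 1.21 ± 0.14), the second of which shares reads with an overlapping gene. Storage sugar genes were mostly lower, with 7 of 12 down and 1 up: GPH1 (glycogen phosphorylase) had 321 and 281 CPM in the mutant batch, against 1256 and 1545 CPM in the wild type labelled micro-aerobic (log2 change -2.22 ± 0.16, adjusted p = 1.2e-07), and GSY2 (glycogen synthase) fell, with a log2 change of -1.64 ± 0.16. The rise was that of TPS2 (trehalose-6-phosphate phosphatase, log2 change 1.3 ± 0.16).

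Sugar transporters other than HXT2 were mainly lower. Of 22 genes of sugar transport, most of them placed by protein domains alone, 18 fell and 3 rose (median -1.46). OPAR_002328 (chromosome 4, 616712 to 618340) had 4.09 and 8.40 CPM in the mutant batch, against 4904 and 5304 CPM in the wild type labelled micro-aerobic (log2 change -9.64 ± 0.44, adjusted p = 8.1e-10). OPAR_002811 (chromosome 5, 68920 to 70677) had 8.18 and 8.05 CPM in the mutant batch, against 4187 and 3709.9 CPM in the wild type labelled micro-aerobic (log2 change -8.92 ± 0.24, adjusted p = 8.6e-12). These are the largest falls among the transporters, and the sugars they carry are not known from the files. MPH2/MPH3, closest to maltose permeases, had 13.4 and 16.1 CPM in the mutant batch, against 283 and 439.7 CPM in the wild type labelled micro-aerobic (log2 change -4.61 ± 0.22, adjusted p = 1.1e-09). Besides HXT2, OPAR_003614 and OPAR_005388 rose, by 2.23 and 0.71 on the log2 scale. Of 9 genes of glucose and maltose signalling 6 fell and none rose. ADR1, which in S. cerevisiae activates ethanol and fatty acid genes, had 187 and 186 CPM in the mutant batch, against 786 and 829 CPM in the wild type labelled micro-aerobic (log2 change -2.12 ± 0.13, adjusted p = 2.5e-08), and CAT8, which there activates gluconeogenic genes, fell, with a log2 change of -1.23 ± 0.16.

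Some genes for taking up nitrogen differed strongly, in both directions. Of 27 genes of nitrogen source use 11 rose (40.7% against 22.2% over all genes), all by at least 2-fold. The 7 that fell were 25.9%, near the 21.6% over all genes, and fewer fell with any 1 library left out. The median log2 change was 0.15. MEP2 (ammonium permease, OPAR_002601) had 2609.7 and 2584 CPM in the mutant batch, against 58.4 and 76.0 CPM in the wild type labelled micro-aerobic (log2 change 5.27 ± 0.17, adjusted p = 4e-11), 38.6-fold apart. MEP3, a second ammonium permease, had 306 and 343 CPM in the mutant batch, against 62.9 and 63.1 CPM in the wild type labelled micro-aerobic (log2 change 2.37 ± 0.17, adjusted p = 1.2e-07). GLN1 (glutamine synthetase), GDH1 (NADPH-dependent glutamate dehydrogenase) and GLT1 (glutamate synthase), which fix ammonium into amino acids, rose by 1.12 ± 0.14, 1.11 ± 0.15 and 1.12 ± 0.17 on the log2 scale. GAP1 (general amino acid permease), DAL4 (allantoin permease) and UGA4 (4-aminobutyrate permease) rose by 1.51 ± 0.14, 3.36 ± 0.15 and 3.95 ± 0.30 on the log2 scale.

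The urea route was lower in the batch. DUR3 (urea transporter, OPAR_002760) had 29.7 and 30.96 CPM in the mutant batch, against 407 and 448 CPM in the wild type labelled micro-aerobic (log2 change -3.82 ± 0.16, adjusted p = 3.8e-10). DUR1,2 (urea amidolyase, which breaks urea down to ammonium) had 129 and 144 CPM in the mutant batch, against 407 and 319.9 CPM in the wild type labelled micro-aerobic (log2 change -1.42 ± 0.18, adjusted p = 2.4e-05). Urea stands in the medium name of the wild type only, and its part in these values cannot be told apart from genotype and culture mode. DUR32, named in the annotation as a second urea transporter, rose but at low levels, with 6.82 and 6.91 CPM in the mutant batch, against 0.638 and 0.958 CPM in the wild type labelled micro-aerobic, and its reads overlap those of a neighbour. The other mutant and wild-type groups are given side by side: MEP2 had 1061 and 1080.0 CPM in the mutant chemostat and 1092 and 1102 CPM in the wild type labelled aerobic, and DUR3 had 42.5 and 50.6 CPM in the mutant chemostat and 1082 and 1306 CPM in the wild type labelled aerobic.

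**Figure D3:**
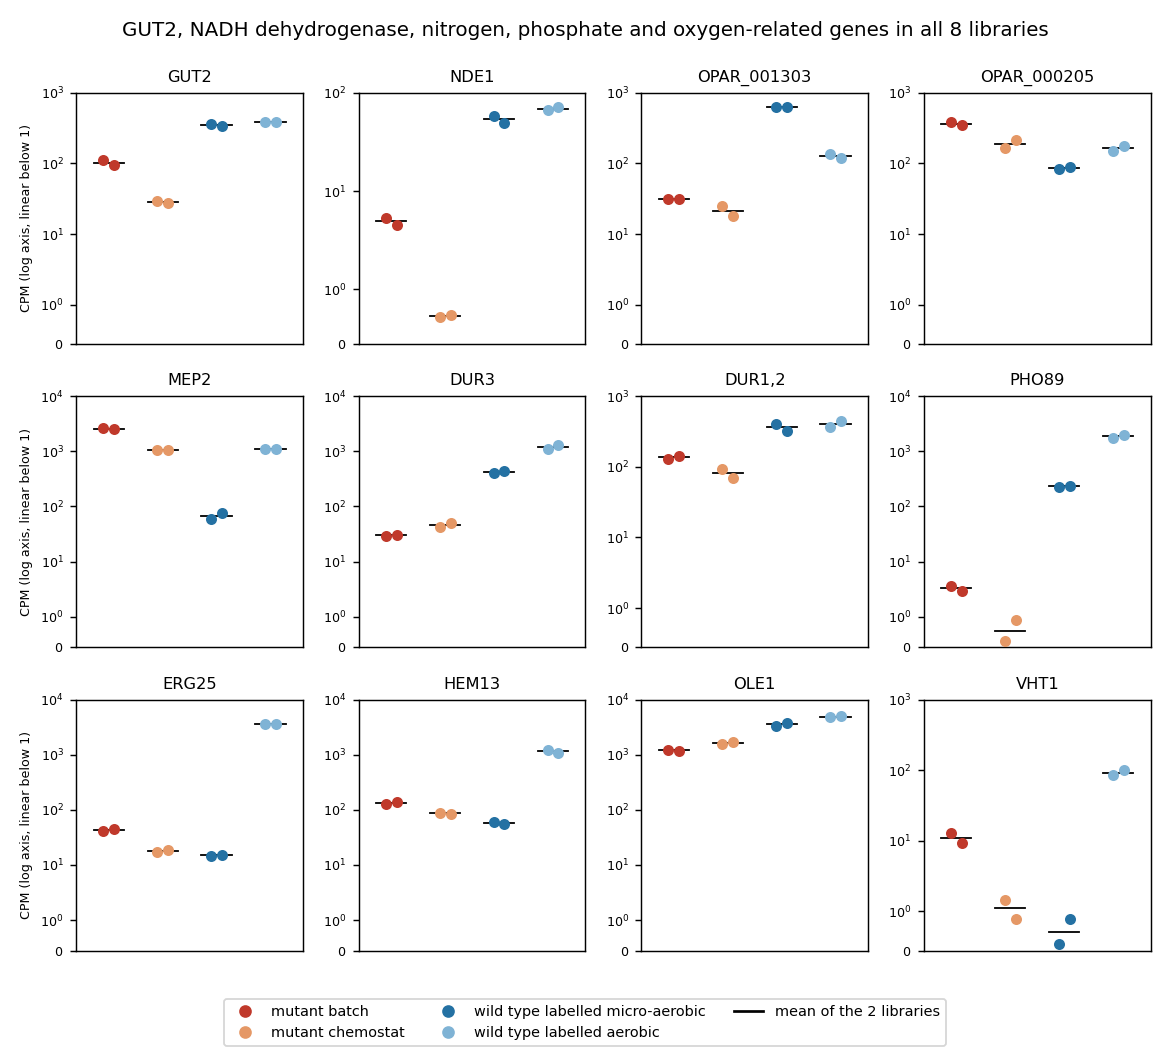
CPM in all 8 libraries (points; log axis, linear below 1; lines at the mean of 2 libraries) of GUT2, NDE1 and 2 genes with the domains of NDE1, the nitrogen genes MEP2, DUR3 and DUR1,2, the phosphate transporter PHO89, and ERG25, HEM13, OLE1 and VHT1; groups run from the mutant batch and mutant chemostat to the wild type labelled micro-aerobic and aerobic. MEP2 is lowest and OPAR_001303 highest in the wild type labelled micro-aerobic, while ERG25, HEM13 and VHT1 are highest in the wild type labelled aerobic.

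Phosphate genes were called lower more often than higher, and those of sulfate assimilation, where called, only rose. PHO89 (sodium-coupled phosphate transporter, OPAR_003569) had 3.64 and 2.97 CPM in the mutant batch, against 229 and 233 CPM in the wild type labelled micro-aerobic (log2 change -6.13 ± 0.23, adjusted p = 1.1e-10), and GIT1 (glycerophosphoinositol transport) fell, with a log2 change of -1.98 ± 0.15. PHO84, the main proton-coupled phosphate transporter of S. cerevisiae, was not called (log2 change -0.11 ± 0.13, adjusted p = 0.529). In all 2 of 17 phosphate genes rose (11.8% against 22.2% over all genes) and 6 fell (35.3% against 21.6%). With any 1 library left out the rises were lost and fewer fell, so the larger share of falls is not secure. For sulfate assimilation 8 of 11 rose and none fell (median 0.63): SUL2, a sulfate permease, had 423 and 419.8 CPM in the mutant batch, against 165 and 146 CPM in the wild type labelled micro-aerobic (log2 change 1.44 ± 0.14, adjusted p = 2.3e-06), and MET3 (ATP sulfurylase, which activates sulfate) rose by 1.27 ± 0.15 on the log2 scale.

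Most genes of cytosolic and mitochondrial ribosomal proteins and of ribosome biogenesis were higher in the batch, mainly by less than 2-fold. Of 79 cytosolic ribosomal protein genes tested, of 81 members, 69 rose (87.3%) and 1 fell, with a median log2 change of 0.81, and the 81 members took 16.6% and 15.4% of the CPM in the mutant batch, against 9.35% and 9.52% in the wild type labelled micro-aerobic. RPL32, of the large subunit, had 1967 and 1722 CPM in the mutant batch, against 684 and 589.6 CPM in the wild type labelled micro-aerobic (log2 change 1.53 ± 0.20, adjusted p = 3e-05). RPL38 had 1119 and 1028 CPM in the mutant batch, against 425 and 388 CPM in the wild type labelled micro-aerobic (log2 change 1.40 ± 0.18, adjusted p = 2.6e-05). Of 71 mitochondrial ribosomal protein genes 48 rose and 1 fell (median 0.58), and of 112 genes tested of ribosome biogenesis and RNA polymerase I, of 114 members, 73 rose and 1 fell (median 0.51). UTP5 (small-subunit processing) rose by 1.36 ± 0.14 on the log2 scale and RRP5 (processing of both subunits) rose by 1.26 ± 0.14 on the log2 scale.

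With each library left out in turn, the rises among cytosolic ribosomal proteins numbered 50 to 62, those among mitochondrial ones 29 to 39 and those of ribosome biogenesis 45 to 48. Translation factors rose in 10 of 25 cases and fell in none (median 0.32), and aminoacyl-tRNA synthetases, which load tRNAs, in 14 of 21 and none (median 0.56). With each library left out in turn 5 to 7 translation factors and 9 to 13 synthetases rose. HTS1, the histidine enzyme, had 386 and 398 CPM in the mutant batch, against 167 and 161 CPM in the wild type labelled micro-aerobic (log2 change 1.26 ± 0.13, adjusted p = 2.7e-06). TEF2 (elongation factor eEF1A) was not called (log2 change 0.32 ± 0.15, adjusted p = 0.0972) but passed under upper quartile scaling, by DESeq2 and in the 4 libraries alone.

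Most genes that make amino acids and nucleotides were higher too. Of 70 genes of amino acid synthesis 44 rose, 24 of them by at least 2-fold, and 4 fell (median 0.79). HIS4, which serves several steps of histidine synthesis, had 453 and 472 CPM in the mutant batch, against 120.0 and 108 CPM in the wild type labelled micro-aerobic (log2 change 2.02 ± 0.16, adjusted p = 2.8e-07). HIS5, of the same pathway, had 293 and 289 CPM in the mutant batch, against 74.0 and 75.1 CPM in the wild type labelled micro-aerobic (log2 change 1.96 ± 0.12, adjusted p = 2.6e-08). GLY1 (threonine aldolase, a source of glycine) rose by 1.82 ± 0.15 on the log2 scale and ASN1 (asparagine synthetase) rose by 1.34 ± 0.13 on the log2 scale. AAT2 (cytosolic aspartate aminotransferase, part of the malate-aspartate shuttle) fell, with 57.2 and 52.5 CPM in the mutant batch, against 187 and 167 CPM in the wild type labelled micro-aerobic (log2 change -1.69 ± 0.16, adjusted p = 1.4e-06). The other 3 falls were GCN4, which in S. cerevisiae is the activator of these genes, and the arginine genes ARG1 and ARG4. GCN4 and ARG4 were no longer called under other scalings or without any 1 library. Of 11 amino acid permeases 3 rose (27.3% against 22.2% over all genes) and 2 fell (18.2% against 21.6%), with a median of 0.23. Fewer permeases rose with any 1 library left out, and fewer fell in some of these fits. Of 21 genes of nucleotide synthesis 15 rose and 1 fell (median 0.80), among them ADE5,7 of purine synthesis, with 773 and 776 CPM in the mutant batch, against 294 and 280.3 CPM in the wild type labelled micro-aerobic (log2 change 1.43 ± 0.12, adjusted p = 6.8e-07), and URA2, the first enzyme of pyrimidine synthesis, which rose by 1.27 ± 0.16 on the log2 scale. AAH1 (adenine deaminase) rose by 2.47 ± 0.20 on the log2 scale.

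**Figure D4:**
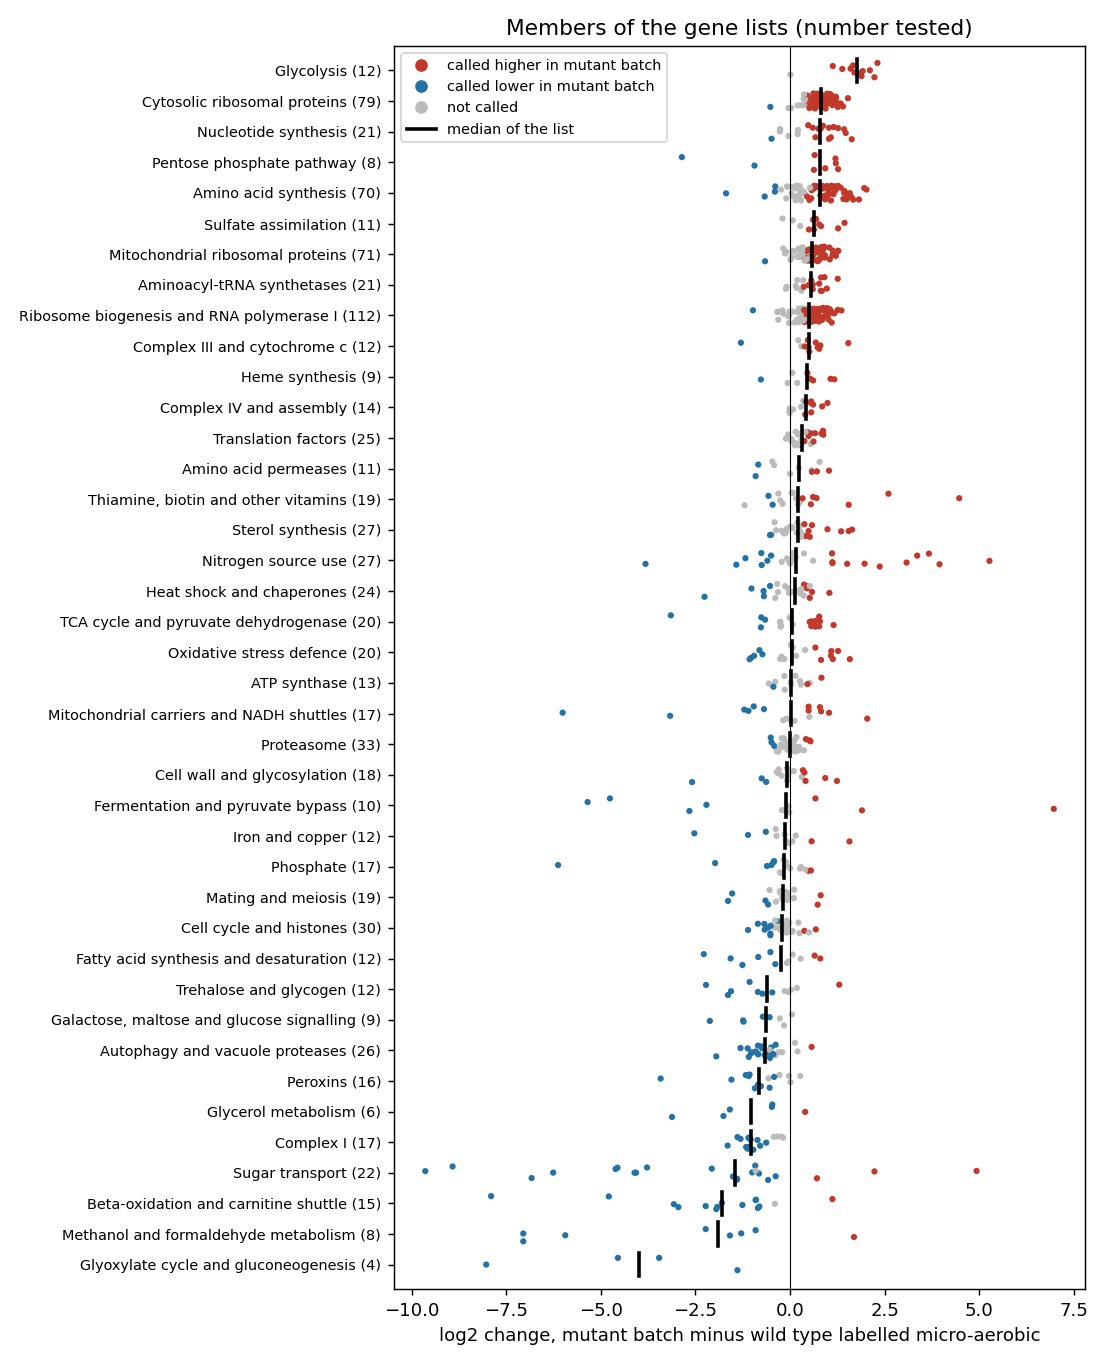
Log2 change, mutant batch minus wild type labelled micro-aerobic, of every tested member (points) of 40 gene lists, ordered by the median of the list (black bars), with the number tested in brackets. Red members were called higher in the mutant batch, blue lower and grey not called; glycolysis has the highest median at 1.77 and the glyoxylate cycle with gluconeogenesis the lowest at -4.0.

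**Figure D5:**
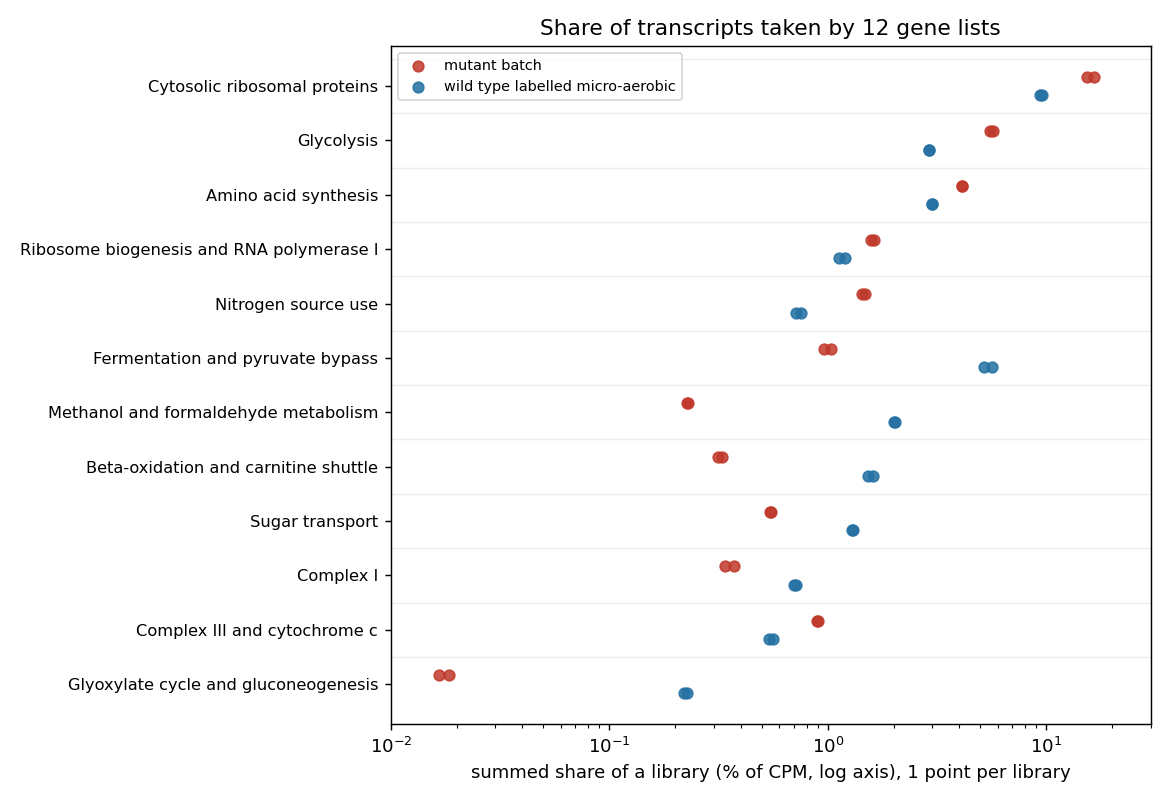
Summed share of each library's CPM (log axis, 1 point per library) taken by 12 gene lists, with the mutant batch above the wild type labelled micro-aerobic in each row. Cytosolic ribosomal proteins took 16.6% and 15.4% in the batch against 9.35% and 9.52% in the wild type, and the points of the groups are apart in all 12 lists.

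Lipid and heme genes showed moderate changes. OLE1, the fatty acid desaturase that makes oleic acid, fell, with 1231 and 1186 CPM in the mutant batch, against 3381 and 3783 CPM in the wild type labelled micro-aerobic (log2 change -1.57 ± 0.14, adjusted p = 1.1e-06). BPL1, which attaches biotin to carboxylases, had 293 and 296 CPM in the mutant batch, against 1397 and 1462 CPM in the wild type labelled micro-aerobic (log2 change -2.28 ± 0.15, adjusted p = 3.8e-08). The fatty acid synthase genes FAS1 and FAS2 fell, with log2 changes of -0.84 ± 0.14 and -1.26 ± 0.13, the second with reads shared with overlapping genes. In all 6 of 12 genes of fatty acid synthesis fell and 2 rose, and with each library left out in turn 4 fell and 1 to 2 rose. Sterol genes rose in 9 of 27 cases and fell in 2 (median 0.20): ERG25 had 42.1 and 45.8 CPM in the mutant batch, against 14.5 and 15.5 CPM in the wild type labelled micro-aerobic (log2 change 1.55 ± 0.16, adjusted p = 3.1e-06), and ERG2 (sterol isomerase) and ERG1 (squalene epoxidase) rose by 1.64 ± 0.15 and 1.35 ± 0.16 on the log2 scale. Of 9 heme genes 5 rose and 1 fell, HEM13 with 128 and 138 CPM in the mutant batch, against 61.3 and 56.4 CPM in the wild type labelled micro-aerobic (log2 change 1.17 ± 0.14, adjusted p = 1.1e-05). With each library left out in turn, 4 to 6 sterol genes and 3 heme genes rose, while 0 to 1 sterol genes fell.

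Among vitamins and metals, THI5 (synthesis of the pyrimidine part of thiamine, OPAR_004293) rose, with 7999.6 and 8605 CPM in the mutant batch, against 1611 and 1123 CPM in the wild type labelled micro-aerobic (log2 change 2.60 ± 0.25, adjusted p = 2.2e-06), though its reads cannot be told apart from those of an overlapping gene. VHT1 (biotin uptake) had 12.7 and 9.27 CPM in the mutant batch, against 0.160 and 0.799 CPM in the wild type labelled micro-aerobic (log2 change 4.47 ± 0.47, adjusted p = 4.6e-06), with 6 counts behind the wild-type values. SIT1 (siderophore iron uptake) fell, with 44.0 and 48.5 CPM in the mutant batch, against 254 and 280.3 CPM in the wild type labelled micro-aerobic (log2 change -2.53 ± 0.15, adjusted p = 1.2e-08), and FTR1 (iron permease) fell, with a log2 change of -1.11 ± 0.17. ATX1, a copper chaperone, rose by 1.57 ± 0.18 on the log2 scale. The lists of vitamins (7 of 19 up, 2 down) and of iron and copper (2 of 12 up, 3 down) had medians of 0.21 and -0.13. Of the vitamin genes 36.8% rose, against 22.2% over all genes, and a smaller share fell than the 21.6% over all genes. Of the iron and copper genes 16.7% rose and 25% fell, near those shares for so short a list. With each library left out in turn 3 to 5 vitamin genes rose and 0 to 1 fell. In the same fits 1 to 2 iron and copper genes rose and 3 fell.

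Degradation and stress genes gave 1 clear direction, that of autophagy. Of 26 genes of autophagy and vacuolar proteases 19 fell and 1 rose (median -0.66), and 12 to 15 fell with each library left out in turn. ATG8, whose protein coats the autophagosome membrane, had 26.5 and 22.8 CPM in the mutant batch, against 88.9 and 102 CPM in the wild type labelled micro-aerobic (log2 change -1.95 ± 0.19, adjusted p = 2e-06). ATG1, the kinase that starts autophagy, had 90.1 and 90.6 CPM in the mutant batch, against 181 and 213 CPM in the wild type labelled micro-aerobic (log2 change -1.12 ± 0.15, adjusted p = 3.9e-05). The 1 rise was that of LAP3, an aminopeptidase, and was lost without 3 of the 4 libraries in turn. Proteasome genes, by contrast, were called in 6 of 33 cases, 3 in each direction, all within 0.54 of 0 on the log2 scale (median -0.01), and at most 1 in each direction with each library left out in turn. For heat shock and chaperones 6 of 24 rose (25% against 22.2% over all genes) and 5 fell (20.8% against 21.6%), and with each library left out in turn 0 to 3 rose and 3 to 4 fell. SSA3, an inducible Hsp70, had 68.3 and 138 CPM in the mutant batch, against 418 and 571 CPM in the wild type labelled micro-aerobic (log2 change -2.26 ± 0.25, adjusted p = 8.7e-06), with the batch libraries unlike each other, and HSP78 (mitochondrial chaperone) fell, with a log2 change of -1.02 ± 0.16.

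Oxidative stress genes rose in 7 of 20 cases (35% against 22.2% over all genes) and fell in 5 (25% against 21.6%), with a median log2 change of 0.04. TSA1 (cytosolic peroxiredoxin) rose, with 1422 and 1585 CPM in the mutant batch, against 489.9 and 515 CPM in the wild type labelled micro-aerobic (log2 change 1.58 ± 0.17, adjusted p = 5.7e-06). PRX1_1, a peroxiredoxin by the annotation, rose by 1.08 ± 0.16 on the log2 scale. GLR1 (glutathione reductase, log2 change -1.07 ± 0.13), CCP1 (mitochondrial cytochrome c peroxidase, -1.03 ± 0.15) and SOD2 (mitochondrial superoxide dismutase, -0.95 ± 0.13) fell. Histone and cell cycle genes were called in 11 of 30 cases, 9 of them falls (30% of the list against 21.6% over all genes). Fewer fell with any 1 library left out, and the rises were lost. HHT2 (histone H3) had 734 and 631 CPM in the mutant batch, against 1409 and 1537 CPM in the wild type labelled micro-aerobic (log2 change -1.11 ± 0.16, adjusted p = 9.8e-05). Of 19 mating and meiosis genes 2 rose and 4 fell (2 with each library left out in turn). The falls were 21.1% of the list, near the 21.6% over all genes, and the share of rises was below the 22.2% over all genes. Among those that fell was GPA1 (the G protein alpha subunit of the pheromone pathway), with 23.5 and 19.7 CPM in the mutant batch, against 66.8 and 67.1 CPM in the wild type labelled micro-aerobic (log2 change -1.64 ± 0.16, adjusted p = 2.7e-06). UTH1 (a cell wall and mitochondrial protein) fell, with a log2 change of -2.59 ± 0.28. It is 1 of 18 cell wall genes, of which 5 rose (27.8% against 22.2% over all genes) and 3 fell (16.7% against 21.6%). Of those rises 1 to 2 were made with each library left out in turn.

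Only 1309 of the 5265 genes tested carry a symbol, while 3250 have a homolog in S. cerevisiae. Genes that carry no symbol, many of which have such a homolog, made up 1559 of the 2308 called. The largest fall of all was of such a gene, OPAR_000628 (chromosome 2, 29569 to 32096), which has glycosidase domains and had 1.25 and 2.10 CPM in the mutant batch, against 1712 and 1579 CPM in the wild type labelled micro-aerobic (log2 change -9.89 ± 0.31, adjusted p = 7.6e-11). OPAR_003554, with no domain in the annotation, had 11.9 and 11.2 CPM in the mutant batch, against 1716 and 1857 CPM in the wild type labelled micro-aerobic (log2 change -7.27 ± 0.21, adjusted p = 1.2e-11). Of those that rose, OPAR_004189, with a potassium transporter domain, had 851 and 889.9 CPM in the mutant batch, against 71.9 and 70.7 CPM in the wild type labelled micro-aerobic (log2 change 3.61 ± 0.14, adjusted p = 1.2e-10). OPAR_004287, with domains of an amine oxidase, had 208 and 236 CPM in the mutant batch, against 16.6 and 11.98 CPM in the wild type labelled micro-aerobic (log2 change 3.96 ± 0.19, adjusted p = 1.1e-09). OPAR_000334, an oxidoreductase by its domains, rose by 5.78 ± 0.43 on the log2 scale with 6 counts behind the wild-type values. OPAR_001940, with alcohol dehydrogenase domains, fell, with 0.341 and 0.0875 CPM in the mutant batch, against 31.6 and 30.2 CPM in the wild type labelled micro-aerobic, on 4 counts in the batch.

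A few more genes stood at the ends of the range. RGI2, which in S. cerevisiae is tied to energy metabolism under respiration, had 6.93 and 8.05 CPM in the mutant batch, against 1269 and 1458 CPM in the wild type labelled micro-aerobic (log2 change -7.50 ± 0.21, adjusted p = 8.6e-12), and overlaps a neighbour with which it shares reads. YHK8, a presumed drug transporter of the major facilitator family in S. cerevisiae, had 58.1 and 70.0 CPM in the mutant batch, against 4.15 and 5.11 CPM in the wild type labelled micro-aerobic (log2 change 3.79 ± 0.26, adjusted p = 5.2e-08). DOG1, a 2-deoxyglucose-6-phosphate phosphatase in S. cerevisiae that also overlaps a neighbour, rose by 2.94 ± 0.17 on the log2 scale. Of genes without a symbol, OPAR_004726 (overlapping, no domain given) and OPAR_001965 (aldo-keto reductase domains) rose by 4.10 ± 0.26 and 3.18 ± 0.58 on the log2 scale.

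Some of the genes without a symbol stand next to each other. At 4 places at least 3 neighbouring genes were called in the same direction by at least 4-fold. On chromosome 2, 29569 to 37397, OPAR_000628 is followed by OPAR_000629 (dihydroxyacetone kinase domains, log2 change -5.91 ± 0.44), DERI1 (D-erythrulose-4-phosphate isomerase) and the sugar transporter OPAR_000631, and all 4 fell. DERI1 had 0 counts over the mutant batch and 36 over the wild type labelled micro-aerobic, which is at least 19-fold lower in the batch, taking a floor of 3 counts over the group. OPAR_000631 had 2.39 and 2.45 CPM in the mutant batch, against 203 and 170.4 CPM in the wild type labelled micro-aerobic (log2 change -6.26 ± 0.23, adjusted p = 8.6e-11). On chromosome 4, 1282760 to 1290437, DUR3 lies between OPAR_002759 (zinc finger transcription factor domains, log2 change -3.07 ± 0.21) and OPAR_002761 (major facilitator domain, -2.62 ± 0.16), and all 3 fell.

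On chromosome 1, 261022 to 264371, OPAR_000156 to OPAR_000158, an alcohol dehydrogenase and a pair of short-chain dehydrogenases by their domains, fell, with log2 changes of -3.80 ± 0.23, -4.58 ± 0.28 and -2.91 ± 0.36. OPAR_000156 and OPAR_000157 overlap each other and can share reads. The only run of rises lay on chromosome 2, 979620 to 983863. There OPAR_001191 (domains of a pyridoxal-phosphate enzyme) had 148 and 128 CPM in the mutant batch, against 31.1 and 33.1 CPM in the wild type labelled micro-aerobic (log2 change 2.11 ± 0.15, adjusted p = 1.2e-07), and its neighbours OPAR_001192 (a monooxygenase by its domains) and OPAR_001193 (major facilitator domain) rose by 2.35 ± 0.16 and 2.10 ± 0.22 on the log2 scale. For these 3 the wild type labelled aerobic stood higher still, OPAR_001191 with 938 and 868 CPM.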

How the data were processed

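Polyadenylated RNA of bioreactor cultures was sequenced from libraries of a stranded kit, per the labels' protocols. The authors deposited raw counts of read pairs per gene, made with featureCounts on gene features of a funannotate annotation of strain DL-1 and with no strand option, per the file headers, so that reads of the 303 genes that overlap another cannot be told apart. Upstream tools, per the submitters' processing notes, were edgeR 3.28.1, featureCounts 1.6.0, Bowtie 1.2.1.1 and SAMtools 1.3.1; a genome build is not given there. The authors also deposited tables with average log2 CPM, whose values were not used; they gave only homologs. The count table holds 4 columns of other libraries, not used here.

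Groups came from the labels. The 5265 genes kept by filterByExpr were fitted over all 8 libraries with a mean per group (edgeR 4.0.16, R 4.3.3, TMM factors 0.859 to 1.12, 4 residual degrees of freedom), tested two-sided by the quasi-likelihood F test with Benjamini-Hochberg adjustment, and called below 0.05. The SE is the absolute log2 change over the square root of F. No counts fell on 62 genes. A floor of 3 counts is 0.270 to 0.491 CPM of a library; floors and intervals cover counting error only. The 2 libraries of a group were no copies of each other: chi-square over its degrees of freedom was 5.13 for the mutant batch and 6.72 for the wild type labelled micro-aerobic. The script was tested on simulated counts.

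The comparison and the lists, written from general knowledge of S. cerevisiae genes with some members added by protein domain, were chosen with earlier results of these data known. Symbols are those of the homolog in the deposited tables where it was among the S. cerevisiae genes written down with the lists, else of the annotation. Other genes carry no symbol, also where they have a homolog. Named were GUT2 and NDE1, the 12 genes with a symbol and 5 without that rose or fell most (called, at least 10 CPM in a group, libraries of the groups not overlapping), up to 4 called members per list with the largest change, and the 5 genes with most CPM per group. Other genes were named after their values were seen. Alternatives were other scalings, filters, DESeq2 1.42.0, the 4 libraries alone, overlapping genes left out and each library left out. A search for promoter motifs and any sequence were not analysed here.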

Additional observations from a re-analysis of the deposited data

How the results depend on the processing

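No paired analysis was possible because the groups share no replicate numbers in the labels. Leaving out 1 library left a lone sample assumed to vary like the other groups: 1462 to 1585 genes were then called (2308 with all), 723 to 774 of them higher and 688 to 816 lower, while calls of at least 2-fold ranged over 297 to 339 higher and 376 to 418 lower. Of the 2308 calls, 1459 to 1571 were made again in the same direction. Scaling, filters, DESeq2, the 4 libraries alone and leaving out overlapping genes gave 2176 to 3229 calls, the most with the 4 libraries alone, and upper quartile scaling gave 1310 higher and 986 lower. The median of all genes moved to between -0.03 and 0.03. Of 241 named genes none reversed under 11 settings, 32 lost their call under at least 1, mostly without 1 library, and 3 gained one. Medians near 0 changed sign for the proteasome, cell wall, carriers and TCA cycle. With 2 libraries a group and all conditions differing together, small changes are the least secure.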

Other observations

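Protein families were also counted by domain, members of the lists included, taking the 15 Pfam domains held by most genes tested, a rule set after the values were seen. Protein kinases (PF00069) fell in 32 of 94 cases and rose in 5, with a median log2 change of -0.27, against 21.6% lower and 22.2% higher over all genes. Fungal zinc cluster transcription factors (PF00172) fell in 32 of 77 cases and rose in 7 (median -0.35), 15 of the falls being at least 2-fold. Short-chain dehydrogenases (PF00106) fell in 13 of 30 and rose in 3 (median -0.36), and the major facilitator family (PF07690), many of whose members are transporters, fell in 38 of 111 and rose in 23 (median -0.16), sugar transporters of the list above among them. RNA-binding proteins with an RRM domain (PF00076) rose in 18 of 52 and fell in 5 (median 0.24). Members of a family can share reads through similar sequence, and some genes hold more than 1 of these domains.

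Genes with a homolog in S. cerevisiae in the deposited tables rose in 857 of 3250 cases (26.4%) and fell in 605 (18.6%), with a median log2 change of 0.05. Those without one rose in 312 of 2015 (15.5%) and fell in 534 (26.5%), with a median of -0.15.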
